A study of Mus musculus with 10 samples.

Results

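The DNA replication and mitosis genes described here are 40 genes that proliferating cells use to copy and divide their chromosomes, with the D cyclins and CDK inhibitors that control the entry into that programme. They were taken by symbol from a count table of 56893 genes, all 40 were found, and the list is one of names, with no measured value in its rule. Polyadenylated RNA of primary mouse spleen T and B cells had been sequenced in a CRISPR interference study of Pou2f1, in which a guide RNA brings a repressor to a promoter. The groups were sgRNA-P1 T cells, a guide against the P1 promoter of Pou2f1, and mock T cells, then sgRNA-P1 B cells, sgRNA-P2 B cells, a guide against the P2 promoter, and mock B cells. The strain and age of the mice, the number of animals, the way cells were selected, their culture, any stimulation and the time under the guide are not stated by any source used here. The guide is called a genotype in the labels, which name nothing else that separates a guide group from its mock group. Other differences between the libraries cannot be told apart from the guide.

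Each group held 2 columns. They differed by less than sampling noise, which made them 1 sample, so every value below comes from 1 library per group and has no replicate check. The summed libraries held 28118839 to 71858511 reads. Brackets give 95% intervals that cover counting error only. Pou2f1 itself stood at 66.1 CPM (reads scaled to library size) in sgRNA-P1 T cells, against 138 CPM in mock T cells. It stood at 91.1 CPM in sgRNA-P1 B cells and 86.5 CPM in sgRNA-P2 B cells, against 157 CPM in mock B cells. The 14 T cell markers summed to 8199 CPM (sgRNA-P1) and 8372 CPM (mock) in T cells and to 58.6 to 61.2 CPM in the B libraries. The 12 B cell markers summed to 364 CPM (sgRNA-P1) and 386 CPM (mock) in T cells and to 21295 to 21787 CPM in the B libraries. In bulk RNA, a smaller share of dividing cells and less RNA per cell cannot be told apart.

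Before a chromosome can be copied, the MCM2-7 helicase is loaded at origins by the origin recognition complex with Cdc6 and Cdt1, a step called licensing. Replication genes are switched on late in G1 by E2F factors once D cyclins and their kinases have inactivated the retinoblastoma protein. Mitosis genes follow in G2 through B-MYB and FOXM1. In resting cells the DREAM complex holds both sets down, binding E2F sites in replication genes and CHR elements, often beside CCAAT boxes, in mitosis genes. Naive lymphocytes of the spleen rest in G0 and are known for high p27, the product of Cdkn1b, until antigen sets them dividing.

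Many promoters of licensing and mitosis members held the element known for their role. In RefSeq promoter windows of GRCm38.p6, 250 bases before to 50 bases after the start, 33 of the 40 members had a window, 38 windows in all. An E2F element (TTTCCCGC, TTTCGCGC, TTTGCCGC or TTTGGCGC, either strand) lay in a window of 6 of 7 licensing and helicase genes. It lay in 1 of 7 fork and nucleotide genes and in 1 of 13 mitosis genes, Cdk1. Of the 27025 genes in the table, 2.6% held it. The CHR element (TTTGAA, either strand) lay in 9 of 13 mitosis genes and in 1 of 14 replication genes, Mcm2, compared with 20.2% of all genes. All of those 9 mitosis genes also held a CCAAT box, a pairing found in 7.97% of all genes. A CCAAT box, with or without a CHR element, was in 12 of 13 mitosis genes, 9 of 14 replication genes and 41.1% of all genes. The octamer ATGCAAAT, the motif that the product of Pou2f1 binds, was in none of the 38 windows on either strand and in 1.97% of all genes. Among all these hits, 1 pair of different motifs overlapped. A match is a description of letters and does not show a bound site.

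**Figure D1:**
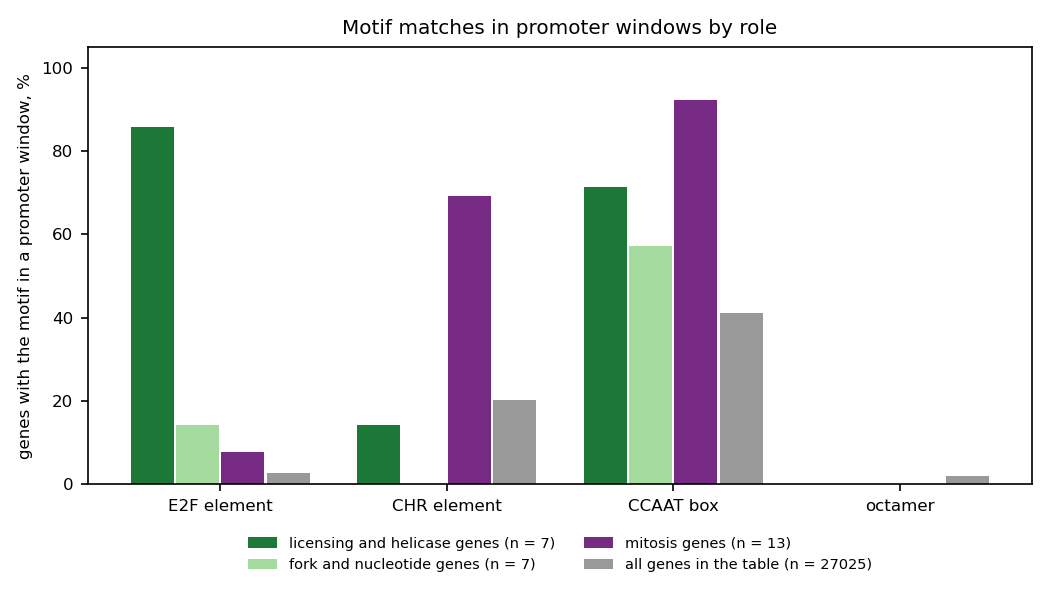
Share of genes with each motif in a promoter window, as % of genes, for 7 licensing and helicase genes, 7 fork and nucleotide genes, 13 mitosis genes and all 27025 genes of the RefSeq table. The E2F element stands out in licensing genes (85.7%), the CHR element in mitosis genes (69.2%), and the octamer bars of the member groups are at 0.

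The windows of 4 members are shown, 1 for each role with such an element, each the gene with the highest mean TPM among those of its role whose window holds the element. Cdt1 and Uhrf1 stand for the E2F element of replication genes, and Aurka and Mki67 for the CHR element with CCAAT boxes of mitosis genes. Capitals mark the E2F element, the CHR element and CCAAT or its reverse complement ATTGG, and each window runs 5′ to 3′ on the strand of its gene.
Cdt1 (chr8:122567765-122568064, plus strand): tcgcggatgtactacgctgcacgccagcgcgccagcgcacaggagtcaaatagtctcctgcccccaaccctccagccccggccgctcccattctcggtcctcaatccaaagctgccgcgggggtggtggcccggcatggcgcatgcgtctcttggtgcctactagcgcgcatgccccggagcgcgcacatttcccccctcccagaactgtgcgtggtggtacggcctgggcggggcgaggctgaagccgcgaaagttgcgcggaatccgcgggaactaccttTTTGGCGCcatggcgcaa
Uhrf1 (chr17:56304063-56304362, plus strand): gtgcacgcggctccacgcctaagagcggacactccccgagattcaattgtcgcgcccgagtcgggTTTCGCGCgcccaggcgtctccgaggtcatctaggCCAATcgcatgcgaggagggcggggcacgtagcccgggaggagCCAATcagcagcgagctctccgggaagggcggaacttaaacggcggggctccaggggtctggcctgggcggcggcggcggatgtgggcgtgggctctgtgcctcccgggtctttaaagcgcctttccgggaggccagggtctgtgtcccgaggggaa
Aurka (chr2:172370521-172370820, minus strand): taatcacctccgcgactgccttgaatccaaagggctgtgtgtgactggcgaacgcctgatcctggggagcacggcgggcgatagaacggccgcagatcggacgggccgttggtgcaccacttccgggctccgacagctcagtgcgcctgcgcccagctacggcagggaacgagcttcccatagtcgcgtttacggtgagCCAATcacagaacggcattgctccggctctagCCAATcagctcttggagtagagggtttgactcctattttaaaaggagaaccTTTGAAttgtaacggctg
Mki67 (chr7:135716330-135716629, minus strand): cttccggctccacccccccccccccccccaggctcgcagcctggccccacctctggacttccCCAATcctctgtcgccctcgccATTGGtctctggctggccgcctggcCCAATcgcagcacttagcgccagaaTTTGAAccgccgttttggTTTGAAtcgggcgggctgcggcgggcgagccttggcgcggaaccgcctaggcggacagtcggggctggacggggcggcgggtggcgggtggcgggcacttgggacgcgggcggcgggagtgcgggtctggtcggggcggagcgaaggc
In Mki67 a pair of CHR elements follows 3 CCAAT boxes, whereas in Aurka the CHR element lies after the start of transcription, downstream of 2 CCAAT boxes.

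Across all 5 libraries, the median replication gene was at a middling level and the median mitosis gene at a very low one. Levels of different genes are compared in TPM, reads scaled to deposited exon length and library size. The median of the 16 replication members was 42.2 TPM in sgRNA-P1 T cells and 41.0 TPM in mock T cells. It was 27.6 TPM in sgRNA-P1 B cells, 29.1 TPM in sgRNA-P2 B cells and 31.0 TPM in mock B cells. The 15 mitosis members had medians of 2.16 TPM in sgRNA-P1 T cells, 2.64 TPM in mock T cells, 2.23 TPM in sgRNA-P1 B cells, 1.74 TPM in sgRNA-P2 B cells and 1.59 TPM in mock B cells. The median of the replication genes thus stood 12.4 to 19.5 times above that of the mitosis genes. Replication members were widely spread around it, in mock T cells from Gins2 at 1.35 TPM to Pcna at 191 TPM. The level used below as a minimum, 5 CPM, was reached by 22 or 23 of the 40 members in each library. Of all 56893 genes in the count table, 9898 to 9954 reached it. Of the members, 14 were under 5 CPM in all 5 libraries. Those 14 ran from Birc5, at 0.643 CPM in sgRNA-P1 B cells, to Aurka, at 4.61 CPM in mock B cells. Of them, 10 were mitosis genes, and 12 of the 16 replication genes were above it in all 5.

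**Figure D2:**
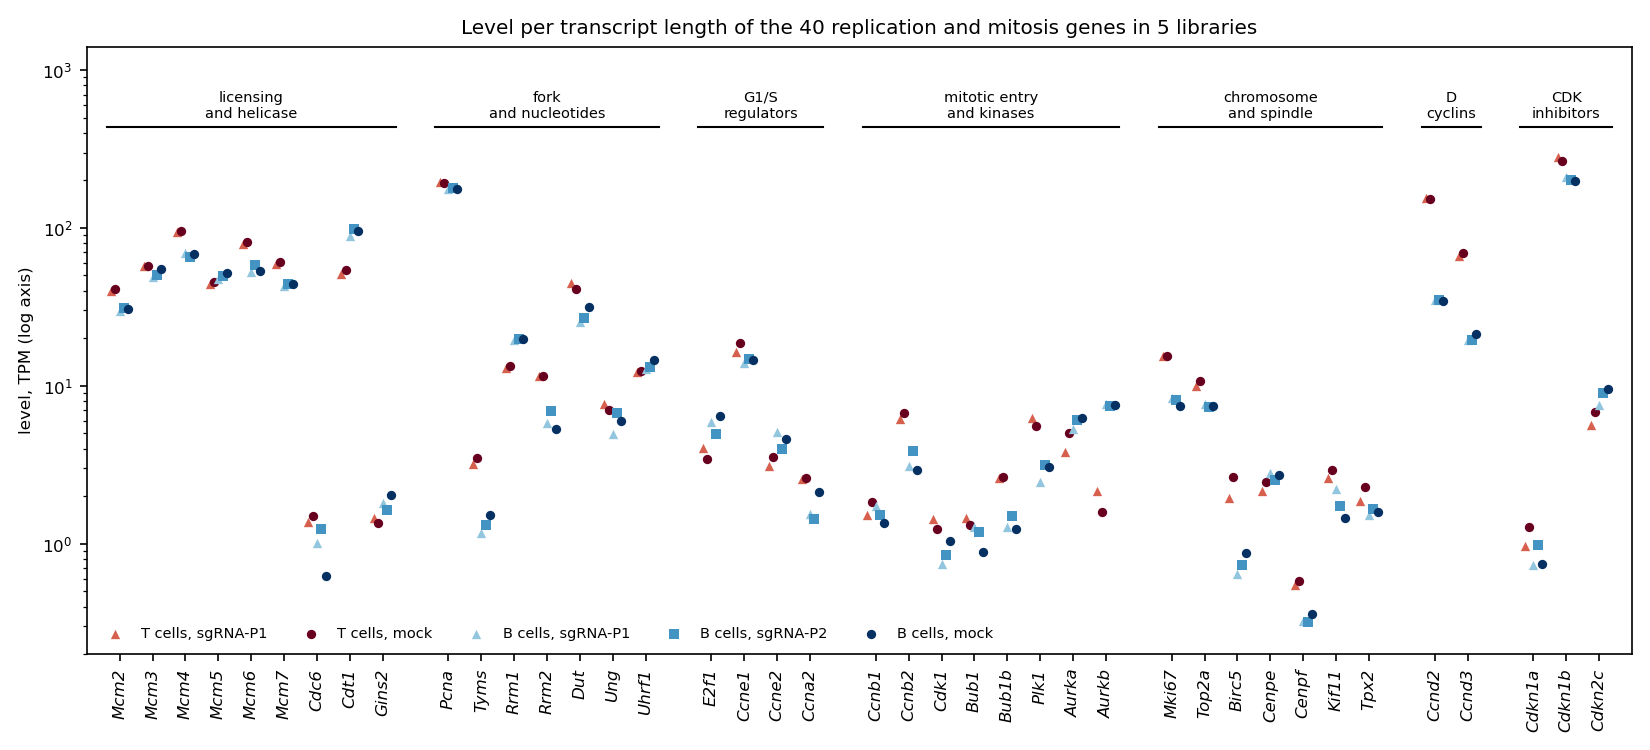
Level of each of the 40 members in 5 libraries, in TPM on a log axis, grouped by role, with 1 point per library. Mcm genes, Pcna, D cyclins and Cdkn1b lie near the top and most mitosis genes below 10.7 TPM, and the points of guide and mock libraries of a cell type lie close together.

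The helicase subunits Mcm2 to Mcm7, which form 1 ring, kept within a narrow band in every library. The highest of the 6 stood above the lowest by a factor of 2.36 in sgRNA-P1 T cells and 2.31 in mock T cells. It was 2.33 in sgRNA-P1 B cells, 2.08 in sgRNA-P2 B cells and 2.24 in mock B cells. Mcm4 was the highest of the 6 in each library, at 94.4 TPM in sgRNA-P1 T cells and 95.1 TPM in mock T cells. It was at 69.2 TPM in sgRNA-P1 B cells, 65.2 TPM in sgRNA-P2 B cells and 68.2 TPM in mock B cells. Mcm6 was at 78.7 TPM (sgRNA-P1) and 80.9 TPM (mock) in T cells and at 52.9 TPM (sgRNA-P1), 58.2 TPM (sgRNA-P2) and 53.5 TPM (mock) in B cells. Mcm7, another of the subunits higher in T cells, was at 59.2 TPM (sgRNA-P1) and 60.7 TPM (mock) in T cells and at 42.6 TPM (sgRNA-P1), 43.97 TPM (sgRNA-P2) and 43.9 TPM (mock) in B cells. Mcm2 was the lowest of the 6 in TPM in each library, a rank that depends on deposited exon lengths, as do the factors above. Its length is 6956 bases, against 3589 to 4666 for the other Mcm genes. By reads alone it stood above Mcm3, Mcm5 and Mcm7 in each library, in mock T cells at 79.5 CPM against 74.6 CPM for Mcm7. Per length, Mcm2 was at 40.1 TPM (sgRNA-P1) and 41.1 TPM (mock) in T cells and at 29.7 TPM (sgRNA-P1), 31.3 TPM (sgRNA-P2) and 30.5 TPM (mock) in B cells. Mcm3 was at 57.2 TPM (sgRNA-P1) and 57.3 TPM (mock) in T cells and at 48.7 TPM (sgRNA-P1), 50.4 TPM (sgRNA-P2) and 54.8 TPM (mock) in B cells, and Mcm5 at 44.3 TPM (sgRNA-P1) and 45.3 TPM (mock) in T cells and at 47.8 TPM (sgRNA-P1), 49.9 TPM (sgRNA-P2) and 51.5 TPM (mock) in B cells. Mcm5 alone of the 6 was lower in both T libraries than in all B libraries. Cdt1, a loading factor that Geminin inhibits, was among the more abundant members, at 51.2 TPM (sgRNA-P1) and 54.0 TPM (mock) in T cells and at 88.5 TPM (sgRNA-P1), 98.0 TPM (sgRNA-P2) and 94.99 TPM (mock) in B cells. Cdc6, which acts with Cdt1 at the same step, was at 0.625 to 1.49 TPM, the lowest licensing gene in 4 of 5 libraries. The mean Mcm subunit stood 40.5 to 80.6 times above it. Gins2, a subunit of the GINS complex that activates the helicase, was at 1.35 to 2.04 TPM. Of its exon bases, 67.3% lie opposite exons of Gse1 (79.1 to 82.6 CPM), so that without a stated strand setting its reads are uncertain.

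Among fork and nucleotide genes, Pcna, the sliding clamp of DNA polymerase, was the most abundant replication member in every library, at 195 TPM in sgRNA-P1 T cells and 191 TPM in mock T cells. It was at 176 TPM in sgRNA-P1 B cells, 179 TPM in sgRNA-P2 B cells and 176 TPM in mock B cells. It varied little among the 5 libraries. Dut, the dUTPase, followed at 44.8 TPM (sgRNA-P1) and 40.9 TPM (mock) in T cells and at 25.4 TPM (sgRNA-P1), 26.9 TPM (sgRNA-P2) and 31.5 TPM (mock) in B cells. Ribonucleotide reductase makes the deoxynucleotides of S phase, and its subunits were present in different proportion. In TPM, the large subunit Rrm1 stood 1.12 times (sgRNA-P1) and 1.15 times (mock) above the small subunit Rrm2 in T cells, against 3.37 times (sgRNA-P1), 2.82 times (sgRNA-P2) and 3.73 times (mock) in B cells. The size of these ratios depends on the deposited exon lengths, 11012 bases for Rrm1 and 2771 for Rrm2. By reads alone, Rrm1 had 40.6 CPM and Rrm2 8.86 CPM in mock T cells. In mock B cells Rrm1 had 63.1 CPM and Rrm2 4.26 CPM. Rrm1 was at 12.97 TPM (sgRNA-P1) and 13.3 TPM (mock) in T cells and at 19.5 TPM (sgRNA-P1), 19.7 TPM (sgRNA-P2) and 19.8 TPM (mock) in B cells. Rrm2 was at 11.5 TPM (sgRNA-P1) and 11.5 TPM (mock) in T cells and at 5.78 TPM (sgRNA-P1), 6.97 TPM (sgRNA-P2) and 5.31 TPM (mock) in B cells. For both subunits the T and B libraries did not overlap, in opposite directions. Of all 10964 genes at 5 CPM or more in some library, 48.4% had every T library above every B library in TPM and 35.3% had every T library below. Of the 26 such members, 17 had T above and 9 had T below, so a gap between the cell types is common among all genes and among these. Tyms, thymidylate synthase, was at 3.20 TPM (sgRNA-P1) and 3.47 TPM (mock) in T cells and at 1.17 TPM (sgRNA-P1), 1.32 TPM (sgRNA-P2) and 1.51 TPM (mock) in B cells. Ung, a uracil glycosylase, was at 7.63 TPM (sgRNA-P1) and 7.07 TPM (mock) in T cells and at 4.94 TPM (sgRNA-P1), 6.75 TPM (sgRNA-P2) and 6.02 TPM (mock) in B cells. The T libraries stood above the B libraries at both. Uhrf1, which keeps DNA methylation through replication, was at 12.2 TPM (sgRNA-P1) and 12.3 TPM (mock) in T cells and at 12.8 TPM (sgRNA-P1), 13.2 TPM (sgRNA-P2) and 14.5 TPM (mock) in B cells, lower in both T libraries than in any B library.

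The mitosis genes were low, with 2 partial exceptions. Mki67, which encodes the Ki-67 antigen, was at 15.5 TPM (sgRNA-P1) and 15.4 TPM (mock) in T cells and at 8.38 TPM (sgRNA-P1), 8.13 TPM (sgRNA-P2) and 7.46 TPM (mock) in B cells. Top2a, the topoisomerase that untangles sister chromatids, was at 10.01 TPM (sgRNA-P1) and 10.7 TPM (mock) in T cells and at 7.67 TPM (sgRNA-P1), 7.30 TPM (sgRNA-P2) and 7.47 TPM (mock) in B cells. The remaining 13 mitosis members were at 7.69 TPM or less in all 5 libraries. Of these, 3 reached 5 CPM in some library. Cenpe, a kinetochore motor, was at 2.16 TPM (sgRNA-P1) and 2.47 TPM (mock) in T cells and at 2.79 TPM (sgRNA-P1), 2.54 TPM (sgRNA-P2) and 2.73 TPM (mock) in B cells. Kif11, a spindle motor, was at 2.62 TPM (sgRNA-P1) and 2.94 TPM (mock) in T cells and at 2.23 TPM (sgRNA-P1), 1.74 TPM (sgRNA-P2) and 1.46 TPM (mock) in B cells. Aurkb, the kinase of the chromosomal passenger complex, was at 2.15 TPM (sgRNA-P1) and 1.59 TPM (mock) in T cells and at 7.69 TPM (sgRNA-P1), 7.40 TPM (sgRNA-P2) and 7.52 TPM (mock) in B cells, and so stood apart between the cell types. Its partner Birc5 was at 0.643 to 2.64 TPM, above 1 TPM in the T libraries only. Of the other low genes, Cenpf, a kinetochore protein, was the lowest at 0.321 to 0.582 TPM. Cdk1, the kinase that drives mitosis, was at 0.744 to 1.43 TPM. Of the G1/S regulators, Ccne1, a cyclin that activates CDK2, was highest, at 16.3 TPM (sgRNA-P1) and 18.8 TPM (mock) in T cells and at 13.9 TPM (sgRNA-P1), 14.7 TPM (sgRNA-P2) and 14.5 TPM (mock) in B cells. E2f1, the factor that switches replication genes on, was at 4.05 TPM (sgRNA-P1) and 3.44 TPM (mock) in T cells and at 5.93 TPM (sgRNA-P1), 4.95 TPM (sgRNA-P2) and 6.48 TPM (mock) in B cells. Ccne2, the second cyclin E gene, was at 3.11 TPM (sgRNA-P1) and 3.56 TPM (mock) in T cells and at 5.07 TPM (sgRNA-P1), 3.97 TPM (sgRNA-P2) and 4.62 TPM (mock) in B cells. Both were lower in the T libraries than in any B library. Ccna2, cyclin A of S phase and G2, was at 1.43 to 2.62 TPM. Exons of Ccne2 and Ccna2 overlap Ints8 and Exosc9 on the other strand over 17.4% and 12.5% of their bases, so these values are uncertain.

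Cdkn1b, the CDK inhibitor gene of p27, was the most abundant of the 40 members in every library, at 283 TPM in sgRNA-P1 T cells and 265 TPM in mock T cells. It was at 211 TPM in sgRNA-P1 B cells, 200 TPM in sgRNA-P2 B cells and 199 TPM in mock B cells. Cdkn1a, which encodes p21, the CDK inhibitor induced by p53, was at 0.735 to 1.28 TPM. Cdkn1b stood 205 to 293 times above it. Cdkn2c, an inhibitor of the D cyclin kinases, was at 5.63 TPM (sgRNA-P1) and 6.80 TPM (mock) in T cells and at 7.51 TPM (sgRNA-P1), 8.95 TPM (sgRNA-P2) and 9.58 TPM (mock) in B cells. The D cyclin Ccnd2 was at 155 TPM (sgRNA-P1) and 153 TPM (mock) in T cells and at 34.8 TPM (sgRNA-P1), 34.8 TPM (sgRNA-P2) and 34.7 TPM (mock) in B cells. Ccnd3 was at 66.0 TPM (sgRNA-P1) and 69.4 TPM (mock) in T cells and at 19.6 TPM (sgRNA-P1), 19.6 TPM (sgRNA-P2) and 21.3 TPM (mock) in B cells. Both D cyclins and Cdkn1b were higher in each T library than in each B library, as were 48.4% of all genes.

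T cells were then set against B cells in 2 pairs of libraries that share none, mock against mock and sgRNA-P1 against sgRNA-P1. With a size rule of 1.5-fold among genes at 5 CPM or more in the higher library, 6 of 25 members were higher in mock T cells, at a background of 18.6% of 10804 genes, and 4 were lower, at a background of 18.4%. With sgRNA-P1, 6 of 26 members were higher in T cells (background 20%) and 5 were lower (background 19.6%). At this minimum the shares of members past the rule were near those of all genes. With a minimum of 1 CPM, which admits the low mitosis genes, 13 of 40 members (32.5%) were higher in mock T cells and 5 (12.5%) lower, where 21.6% and 21.4% of all genes were. With sgRNA-P1 they were 13 of 39 (33.3%) higher and 5 (12.8%) lower, where 23.4% and 22.5% of all genes were. In both pairs the members higher in T cells were Ccnd2, Ccnd3, Tyms, Rrm2 and Mki67, and those lower were Aurkb, Cdt1, Rrm1 and E2f1. They were 5 and 4 of the 25 members tested in both pairs. In these pairs Tyms, Rrm2, Aurkb and E2f1 reached 5 CPM only in the cell type where they were higher. Their place among the tested members thus rests on that cell type, and finding them in both pairs is no separate support. Of 10701 genes tested in both, 1817 were higher and 1804 lower in both, shares near those of the members. The median log2 fold change of the members was 0.32 between mock libraries and 0.22 between libraries with sgRNA-P1, where all genes tested had 0.02 in both pairs.

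**Figure D3:**
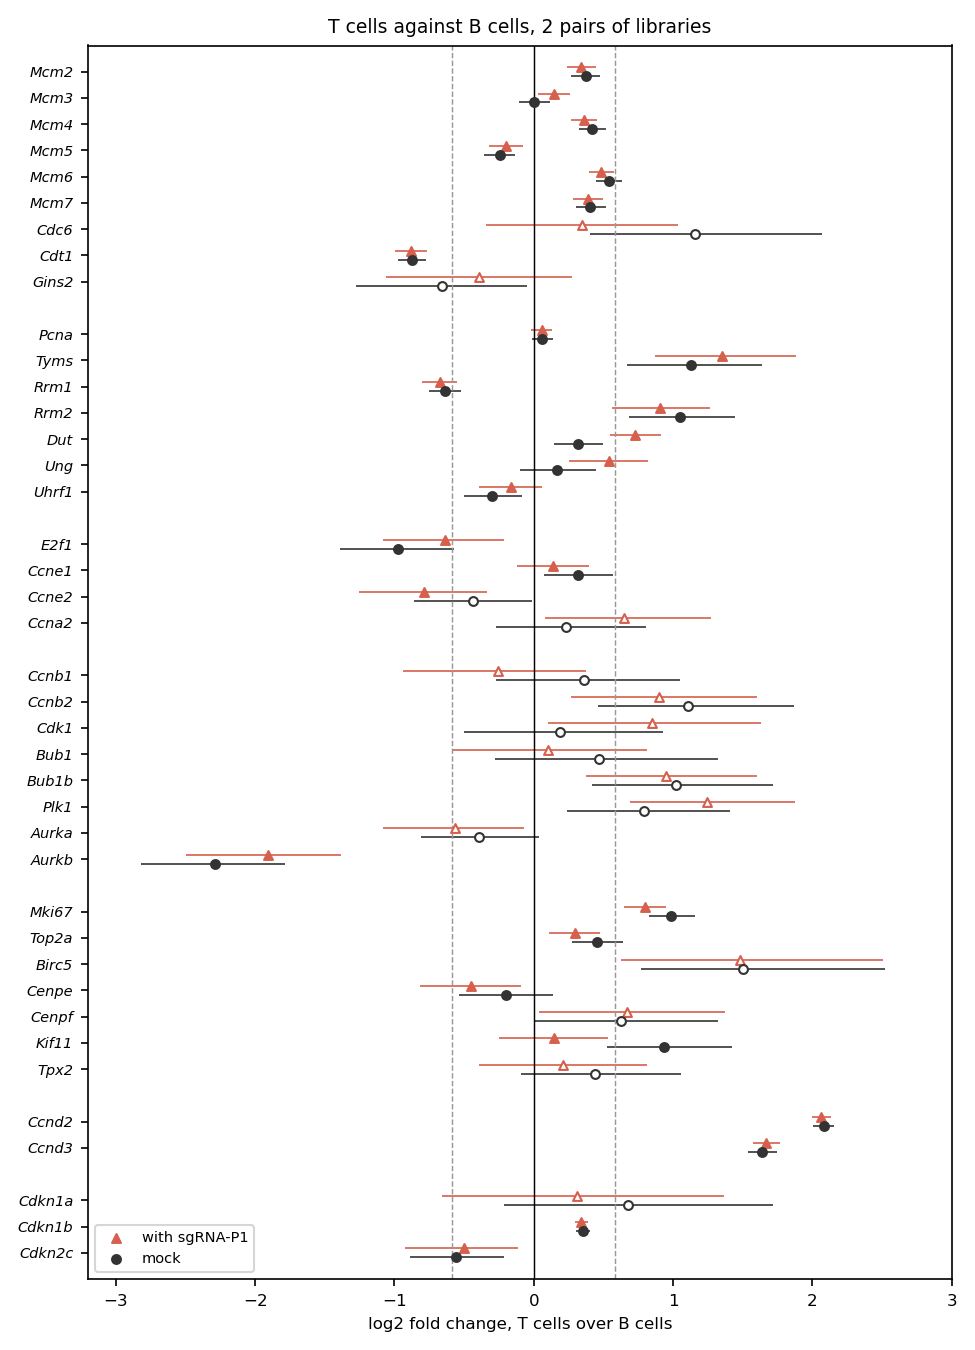
Log2 fold change of T cells over B cells for the 40 members, with sgRNA-P1 (triangles) and in mock (circles), bars being 95% counting intervals, open symbols genes under 5 CPM in both libraries and dashed lines the 1.5-fold rule. The D cyclins lie furthest right at 1.64 to 2.08 and Aurkb furthest left at -1.91 with sgRNA-P1 and -2.29 in mock.

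The D cyclins had the largest differences in favour of T cells. Ccnd2 (chr6:127102125-127129156 in the deposited coordinates, minus strand) had 402 CPM in sgRNA-P1 T cells, against 96.2 CPM in sgRNA-P1 B cells. It had 399.5 CPM in mock T cells, against 94.4 CPM in mock B cells. The log2 fold changes of Ccnd2 were 2.06 [1.997 to 2.13] with sgRNA-P1 and 2.08 [2.01 to 2.16] in mock. Ccnd3 (chr17:47815976-47910616, plus strand) had 1.67 [1.57 to 1.76] with sgRNA-P1 and 1.64 [1.54 to 1.74] in mock. Once a trend with GC content and length across genes was subtracted, Ccnd3 had 1.23 with sgRNA-P1 and 1.22 in mock, and Ccnd2 had 2.11 with sgRNA-P1 and 2.10 in mock. On the other strand, Bysl (20.1 to 28.2 CPM) shares 4.11% of the exon bases of Ccnd3.

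Nucleotide and licensing genes went in both directions. Tyms had 5.38 CPM in sgRNA-P1 T cells, against 2.10 CPM in sgRNA-P1 B cells. It had 5.87 CPM in mock T cells, against 2.66 CPM in mock B cells, log2 fold changes of 1.35 [0.87 to 1.88] with sgRNA-P1 and 1.13 [0.67 to 1.64] in mock. Rrm2 was also higher in T cells (0.91 [0.56 to 1.26] with sgRNA-P1 and 1.05 [0.68 to 1.45] in mock). Rrm1 was lower in T cells (-0.67 [-0.80 to -0.55] with sgRNA-P1 and -0.64 [-0.75 to -0.52] in mock). Cdt1 (chr8:123294754-123300293, plus strand) was at 44.4 CPM in sgRNA-P1 T cells, against 81.7 CPM in sgRNA-P1 B cells. The mock T library had 47.1 CPM, against 86.3 CPM in mock B cells, a log2 fold change of -0.88 in both pairs. Of the 6 Mcm genes, 4 had intervals above 0 in both pairs (Mcm2, Mcm4, Mcm6 and Mcm7, from 0.34 to 0.54), and Mcm5 had intervals below 0 (-0.20 with sgRNA-P1 and -0.24 in mock). Subunits of 1 ring therefore did not all differ in the same direction between the cell types. Pcna had 0.06 in both pairs, with intervals that reached 0. After the GC and length trend Pcna had 0.24 with sgRNA-P1 and 0.26 in mock, above those intervals, and Mcm7 had 0.17 with sgRNA-P1 and 0.22 in mock, against 0.39 and 0.41 before it. The trend took Cdt1 to -1.23 with sgRNA-P1 and -1.19 in mock.

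Aurkb and Mki67 differed in opposite directions. Aurkb (chr11:68936473-68942490, plus strand) had 1.75 CPM in sgRNA-P1 T cells, against 6.66 CPM in sgRNA-P1 B cells. It had 1.30 CPM in mock T cells, against 6.41 CPM in mock B cells, with log2 fold changes of -1.91 [-2.49 to -1.39] with sgRNA-P1 and -2.29 [-2.82 to -1.79] in mock. Mki67 (chr7:135291513-135318090, minus strand) had 43.1 CPM in both T libraries, against 24.8 CPM in sgRNA-P1 B cells and 21.7 CPM in mock B cells, and log2 fold changes of 0.80 [0.65 to 0.95] with sgRNA-P1 and 0.99 [0.83 to 1.16] in mock. Besides the 9 members past the rule in both pairs, Kif11 passed it in mock alone (0.94, and 0.14 with sgRNA-P1). With sgRNA-P1 alone, Dut (0.73, and 0.32 in mock) and Ccne2 (-0.79, and -0.44 in mock, where it was under 5 CPM) passed it. After the GC and length trend Ccne2 had -0.19 with sgRNA-P1 and no longer passed, and Dut had 0.92 with sgRNA-P1 and 0.58 in mock. Other members passed the rule only after the trend. They were Cdkn2c in both pairs (-0.82 in each), Mcm6 in mock (0.61) and Ung with sgRNA-P1 (0.61). Whether the pairs differ at Kif11, Dut and Ccne2 was not tested.

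A model over all 5 libraries gave the comparison a test, with the libraries of a cell type under different guides in the place of replicates and 2 residual degrees of freedom. By edgeR's quasi-likelihood test with Benjamini-Hochberg adjustment over 17581 genes, 19 of the 40 members were higher in T cells and 9 were lower at an adjusted p of 0.05, against a background of 33.1% and 31.1% of genes. All 5 called members of the chromosome and spindle group were higher (Birc5, Mki67, Cenpf, Kif11 and Top2a), among them Birc5 at 1.48 ± 0.26 (SE, adjusted p = 0.000132). The mitotic kinases and cyclins were divided, with Plk1 (0.98), Bub1b (0.94) and Ccnb2 (0.92) higher and Aurkb (-2.08, adjusted p = 7.48e-08) and Aurka (-0.53) lower. In licensing, Mcm6 (0.48), Mcm4 (0.42), Mcm7 (0.39) and Mcm2 (0.34) were higher and Cdt1 (-0.91, adjusted p = 2.78e-09) and Mcm5 (-0.23, adjusted p = 0.003) lower. Among nucleotide and fork genes Tyms (1.23), Rrm2 (0.91) and Dut (0.54) were higher, and Rrm1 (-0.65) and Uhrf1 (-0.23) were lower. Ccna2 (0.50) was higher, while E2f1 (-0.72) and Ccne2 (-0.54) were lower. Ccnd2 (2.08 ± 0.05, adjusted p = 1.02e-14), Ccnd3 (1.67, adjusted p = 2.66e-13) and Cdkn1b (0.38) were higher, and Cdkn2c (-0.58) was lower. The 12 members not called included Pcna (0.06, adjusted p = 0.278), Mcm3 (0.08) and Ccnb1 (0.07). Without the library of sgRNA-P1 T cells, 5 members were called lower in place of 9. Calls over all genes also fell there, to 8704 of 18527 in either direction. With all 5 libraries, 5815 of 17581 genes were called higher and 5461 lower.

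NK cell markers summed to 141 CPM in both T libraries and to 6.77 to 7.45 CPM in the B libraries. In TPM, Nkg7 alone held 260 of 353 (sgRNA-P1) and 248 of 344 (mock) in T cells. The median NK cell marker there was at 3.61 CPM (sgRNA-P1) and 3.13 CPM (mock). Germinal centre B cell markers summed to 73.5 CPM (sgRNA-P1) and 75.1 CPM (mock) in T cells and to 133 to 152 CPM in the B libraries. The germinal centre sums also rest largely on 1 gene. In TPM, Fas held 61.6 of 85.9 (sgRNA-P1) and 59.8 of 85.7 (mock) in T cells. Bcl6 held 59.2 of 107 (sgRNA-P1), 54.6 of 104 (sgRNA-P2) and 52.3 of 97.6 (mock) in B cells. Erythroid precursors divide in the mouse spleen, and their 10 markers other than Tfrc summed to 0.943 to 2.90 CPM in the 5 libraries. The part of NK and germinal centre cells in the differences between T and B libraries was not tested.

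The guides were set against mock to see whether these genes moved with Pou2f1. No member at 5 CPM or more passed 1.5-fold in any guide comparison. In sgRNA-P1 T cells, 0 of 23 members passed the rule in either direction (background 0.11% of 10007 genes), and their log2 fold changes ran from -0.27 (Cdkn2c) to 0.13 (Dut), with a median of -0.04 against -0.02 over all genes. In sgRNA-P1 B cells, 0 of 23 passed (background 0.735% of 10062 genes), with a range from -0.33 (Cdkn2c) to 0.19 (Mki67) and a median of -0.01 against -0.01. In sgRNA-P2 B cells, 0 of 23 passed (background 0.278% of 10061 genes), with a range from -0.40 (E2f1) to 0.38 (Rrm2) and a median of -0.02 against -0.00. Between the guides in B cells, 0 of 24 passed (background 0.418% of 10059 genes), with a range from -0.42 (Ung) to 0.38 (Ccne2). The comparisons with mock in B cells share the mock library. The backgrounds are so small that a count of 0 among 23 or 24 members is near them.

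**Figure D4:**
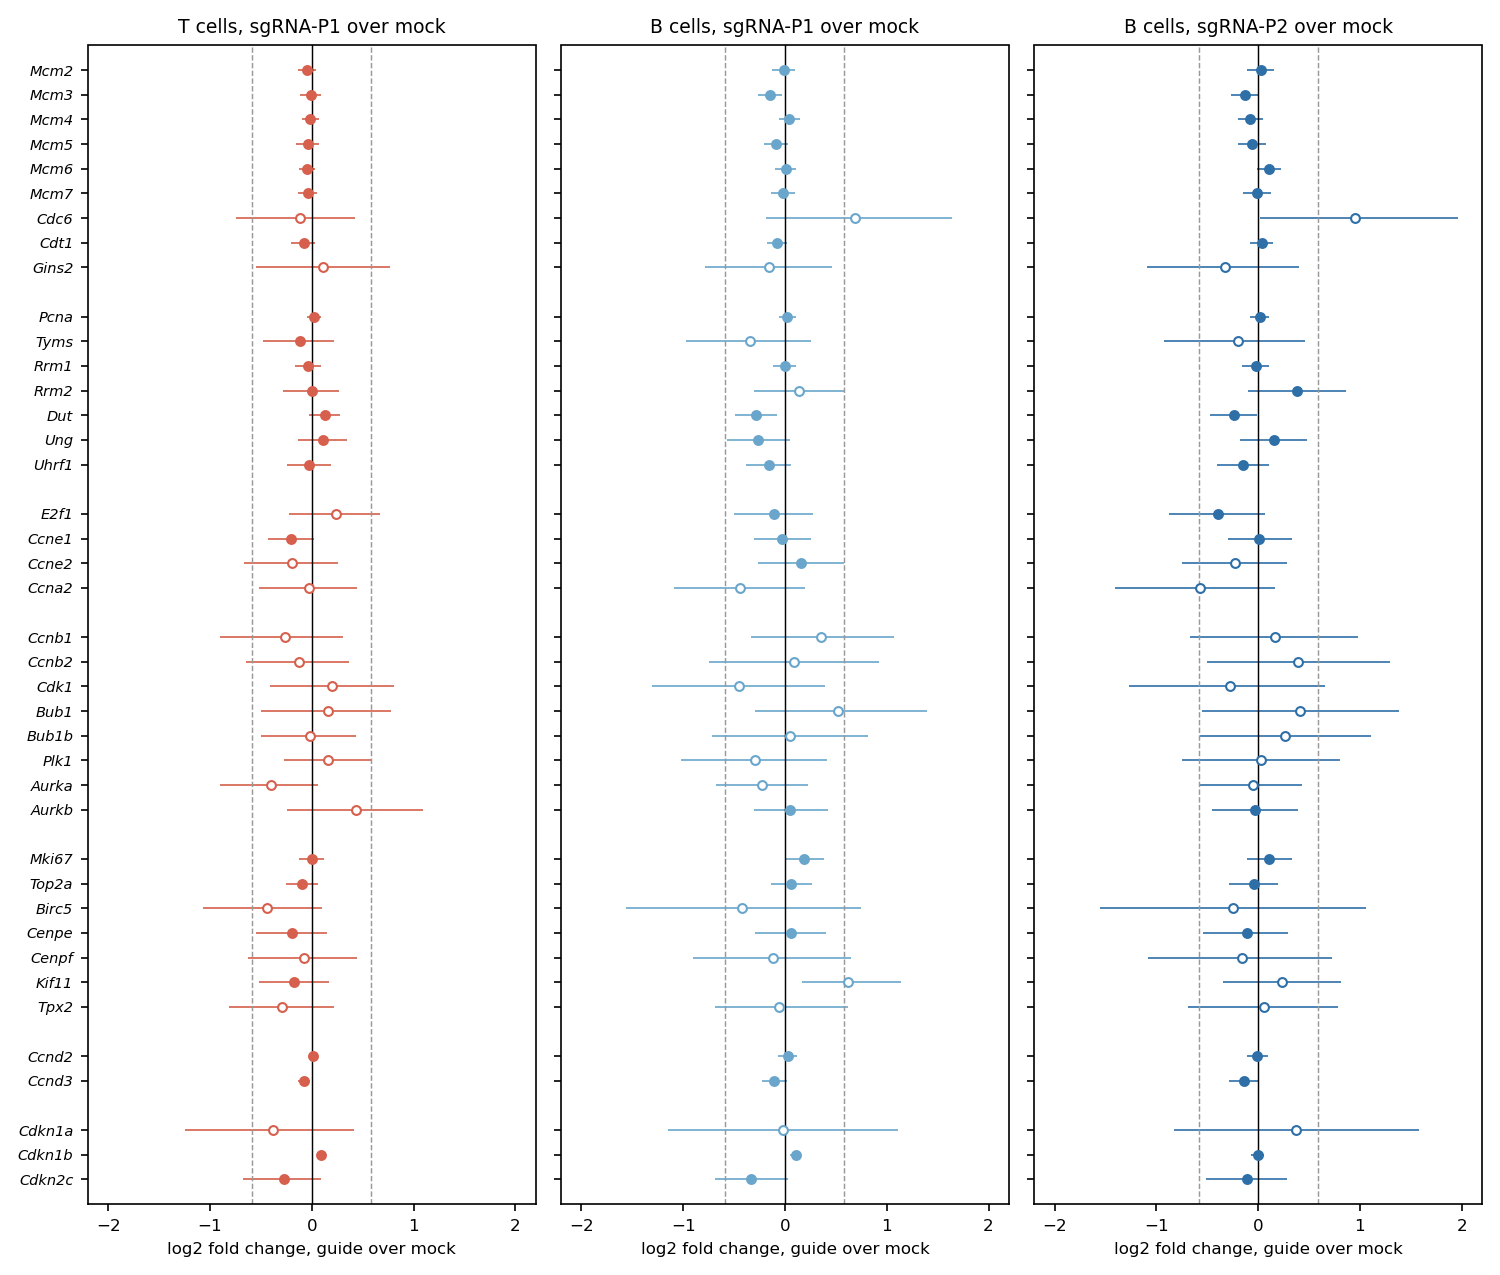
Log2 fold change of guide over mock for the 40 members in sgRNA-P1 T cells, sgRNA-P1 B cells and sgRNA-P2 B cells, bars being 95% counting intervals, open symbols genes under 5 CPM in both libraries and dashed lines the 1.5-fold rule. All filled symbols lie between the dashed lines, and wide bars belong to genes with few reads.

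Small differences beyond counting error were no more common than over all genes. The interval excluded 0 for 2 of 23 members in sgRNA-P1 T cells (background 14.8%), 4 of 23 in sgRNA-P1 B cells (background 33.3%), 1 of 23 in sgRNA-P2 B cells (background 11.6%) and 4 of 24 between the guides (background 23.3%). Cdkn1b had 357 CPM in sgRNA-P1 T cells, against 335 CPM in mock T cells, a log2 fold change of 0.09 [0.05 to 0.14]. In B cells it had 282 CPM with sgRNA-P1 and 261 CPM with sgRNA-P2, against 262 CPM in mock, or 0.11 [0.05 to 0.16] with sgRNA-P1 and -0.00 with sgRNA-P2, where the interval holds 0. Across 9703 genes, the log2 fold change of sgRNA-P1 B cells over mock B cells went with GC content (Spearman rho -0.50, a description across genes). After the GC and length trend, the value of Cdkn1b was 0.07 in T cells and 0.02 in sgRNA-P1 B cells. Ccnd3 differed by -0.08 [-0.14 to -0.01] in sgRNA-P1 T cells, Mcm3 by -0.15 [-0.27 to -0.03] and Mki67 by 0.19 [0.00 to 0.38] in sgRNA-P1 B cells. After the trend these were -0.03 for Ccnd3, -0.09 for Mcm3 and 0.15 for Mki67. Dut was at 18.01 CPM in sgRNA-P1 B cells and 18.6 CPM in sgRNA-P2 B cells, against 22.0 CPM in mock B cells (-0.29 [-0.49 to -0.08] with sgRNA-P1 and -0.24 [-0.47 to -0.01] with sgRNA-P2). It was at 29.9 CPM in sgRNA-P1 T cells, against 27.4 CPM in mock T cells. Between the guides in B cells Ung (-0.42 [-0.74 to -0.10]), Cdt1 (-0.11), Mcm4 (0.12) and Cdkn1b (0.11) had intervals that exclude 0. After the trend Ung kept -0.42 and Mcm4 had 0.10, while Cdt1 had -0.05, Cdkn1b 0.05 and Ccne2 0.17.

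Of the members under 5 CPM, Cdc6 and Kif11 alone passed 1.5-fold in a guide comparison, each with a wide interval. At a minimum of 1 CPM they were 2 of 38 members in sgRNA-P1 B cells, where 2.32% of 13161 genes were higher and 1.98% lower. In sgRNA-P2 B cells 1 of 38 passed, where 1.96% of 13131 genes were higher and 1.9% lower. Cdc6 was at 1.56 CPM in sgRNA-P1 B cells and 1.85 CPM in sgRNA-P2 B cells, against 0.95 CPM in mock B cells, log2 fold changes of 0.69 [-0.18 to 1.64] with sgRNA-P1 and 0.95 [0.01 to 1.96] with sgRNA-P2. In T cells it was at 1.98 CPM with sgRNA-P1, against 2.16 CPM in mock. Kif11 was at 4.90 CPM in sgRNA-P1 B cells and 3.73 CPM in sgRNA-P2 B cells, against 3.16 CPM in mock B cells, and its value with sgRNA-P1 was 0.62 [0.16 to 1.14]. In the model over 5 libraries, edgeR's quasi-likelihood test called none of the 40 members between guide and mock (background 0.0284% of genes), and 0 members had an unadjusted p under 0.05, where 439 of 17581 genes did. DESeq2 called 0 members as well. The widest of these estimates belonged to genes of few reads, such as Cdkn1a (-0.12 ± 0.32, SE) and Cdc6 (0.31 ± 0.27), while Ccnd2 (0.01 ± 0.05) and Pcna (0.02 ± 0.05) were the most closely bounded.

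Other genes of the same processes were counted with the edgeR model between the cell types, where 33.1% of all genes were higher in T cells and 31.1% lower. Of 42 other replication genes, 8 were higher in T cells (19%) and 13 lower (31%). The largest differences between mock libraries were at Pole2, a subunit of polymerase epsilon (16.03 CPM in mock T cells, 2.84 CPM in mock B cells, log2 fold change 2.48) and the thymidine kinase gene Tk1 (10.6 CPM in mock T cells, 37.9 CPM in mock B cells, -1.83). Next came the clamp loader gene Rfc3 (9.57 CPM in mock T cells, 26.0 CPM in mock B cells, -1.44) and the polymerase delta gene Pold1 (57.9 CPM in mock T cells, 153 CPM in mock B cells, -1.40). Of 51 other mitosis genes, 17 were higher (33.3%) and 12 lower (23.5%). The largest differences were at Racgap1 of the cytokinesis machinery (50.9 CPM in mock T cells, 8.42 CPM in mock B cells, 2.59) and the condensin gene Smc4 (763 CPM in mock T cells, 191 CPM in mock B cells, 1.999), followed by the kinetochore gene Knl1 (4.10 CPM in mock T cells, 12.8 CPM in mock B cells, -1.64) and the kinesin gene Kif22 (8.93 CPM in mock T cells, 4.43 CPM in mock B cells, 1.003). Smc4 was the highest gene of this list per exon length in all 5 libraries, far above the mitosis members. It was at 521 TPM (sgRNA-P1) and 527 TPM (mock) in T cells and at 127 to 165 TPM in the B libraries.

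Of 19 genes of the Rb, E2F and DREAM list, the controllers of the programme, 4 were higher in T cells (21.1%) and 7 lower (36.8%) by the model, beside the 33.1% and 31.1% of all genes. By size between mock libraries, E2f2 (40.2 CPM in mock T cells, 88.9 CPM in mock B cells, -1.14), E2f3 (7.92 CPM in mock T cells, 16.8 CPM in mock B cells, -1.08) and Rb1 (97.5 CPM in mock T cells, 172 CPM in mock B cells, -0.82) were lower. The repressor gene E2f6 (20.8 CPM in mock T cells, 13.3 CPM in mock B cells, 0.64) was higher. Of 28 tested other cyclins, CDKs and their controls, 6 were higher (21.4%) and 13 lower (46.4%). The largest differences were at the checkpoint kinase genes Wee1 (2.73 CPM in mock T cells, 10.5 CPM in mock B cells, -1.93) and Chek2 (2.62 CPM in mock T cells, 8.60 CPM in mock B cells, -1.71). In the same list Cdkn2d, a CDK inhibitor of the Cdkn2c family, was higher (60.0 CPM in mock T cells, 37.1 CPM in mock B cells, 0.69) and Cdk2 lower (48.2 CPM in mock T cells, 77.2 CPM in mock B cells, -0.68).

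Genes tied to quiescence were expressed throughout, in a list chosen like the others with earlier results of these data known. All 22 were at 5 CPM or more in all 5 libraries, and their summed level was 6716 CPM (sgRNA-P1) and 6856 CPM (mock) in T cells and 6618 to 6681 CPM in the B libraries. Klf2, a factor of naive lymphocytes, was at 967 CPM (sgRNA-P1) and 1058 CPM (mock) in T cells and at 1238 CPM (sgRNA-P1), 1347 CPM (sgRNA-P2) and 1352 CPM (mock) in B cells. The antiproliferative gene Btg1 was at 1538 CPM (sgRNA-P1) and 1574 CPM (mock) in T cells and at 1772 CPM (sgRNA-P1), 1763 CPM (sgRNA-P2) and 1756 CPM (mock) in B cells. Between the cell types 10 were higher in T cells (45.5%) and 8 lower (36.4%) by the model. The largest differences were at Pik3ip1, an inhibitor of PI3K (147 CPM in mock T cells, 40.2 CPM in mock B cells, 1.87), Tob1 (88.5 CPM in mock T cells, 29.97 CPM in mock B cells, 1.56), Pdcd4 (341 CPM in mock T cells, 169 CPM in mock B cells, 1.01) and Txnip (871 CPM in mock T cells, 470 CPM in mock B cells, 0.89).

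Growth and activation genes and p53 targets had some of the largest differences of all these lists. Of 17 growth and activation genes, a list that also holds the member Mki67, 16 or 17 were at 5 CPM or more in each library. Their summed level was 4607 CPM (sgRNA-P1) and 4730 CPM (mock) in T cells and 6372 to 6668 CPM in the B libraries. The highest was Fos, at 2025 TPM (sgRNA-P1) and 2145 TPM (mock) in T cells and at 3173 to 3275 TPM in the B libraries. Between the cell types, 5 of the list were higher in T cells (29.4%) and 8 lower (47.1%). By size, the interleukin receptor gene Il2ra (113 CPM in mock T cells, 3.90 CPM in mock B cells, 4.85) was higher. Irf4 (35.5 CPM in mock T cells, 429 CPM in mock B cells, -3.59), Egr1 (113 CPM in mock T cells, 535 CPM in mock B cells, -2.24) and Egr2 (21.8 CPM in mock T cells, 61.1 CPM in mock B cells, -1.48) were lower. Of 17 p53 target genes tested, 7 were higher (41.2%) and 6 lower (35.3%). By size, Bbc3, which encodes the death protein PUMA (24.9 CPM in mock T cells, 4.67 CPM in mock B cells, 2.41), and Zmat3 (27.3 CPM in mock T cells, 12.7 CPM in mock B cells, 1.102) were higher. Plk2 (13.2 CPM in mock T cells, 85.4 CPM in mock B cells, -2.69) and Pmaip1, which encodes NOXA (13.9 CPM in mock T cells, 79.7 CPM in mock B cells, -2.52), were lower. No tested gene of these 7 other lists passed 1.5-fold in any guide comparison. The medians of the quiescence list were -0.02 in sgRNA-P1 T cells, 0.01 in sgRNA-P1 B cells and 0.01 in sgRNA-P2 B cells against mock.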

How the data were processed

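Poly(A) RNA of primary spleen T and B cells was sequenced. The authors deposited whole-number read counts per gene, made with HISAT2 and featureCounts per the submitters' processing notes, which name the builds hg38 and mm39. Versions, annotation and strand setting: not given in the sources used here. Columns of a group had a mean chi-square per gene of 0.00231 to 0.00283, so they were summed to 1 library. Most counts were even, as when both reads of a pair are counted, so counting intervals (exact conditional for fold changes) used reads divided by 2. Libraries were scaled by TMM factors (0.982 to 1.015; edgeR 4.0.16, R 4.3.3). Log2 fold changes add a prior of 1 read and use genes at 5 CPM or more in the higher library, with a size rule of 1.5-fold in place of a test. TPM uses the deposited exon length. A quasi-likelihood model with terms for cell type and guide used 5 libraries, and the test was checked on simulated data. DESeq2 1.42.0 was an alternative, as were other scalings, minimums, priors and a GC and length trend taken from GENCODE transcripts of GRCm38. Exon overlaps between genes were read from the deposited coordinates. Promoter letters come from RefSeq.

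Members and gene lists were chosen with earlier results of these data known. The rule for named genes took every member at 5 CPM or more in any library, the members under it by range with the highest and lowest, and of each other list up to 4 genes past the size rule with the largest difference between mock T and mock B cells. Low members named beyond that rule were chosen after their values were seen. The planned block on replicate numbers could not be used. Libraries carry no molecular identifiers, so intervals and floors of 3 reads cover counting error only. The p-values of the model measure the spread between these 5 libraries, which may be technical.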

Additional observations from a re-analysis of the deposited data

Results flagged for a closer look

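Dut, which encodes the dUTPase, differed from mock in opposite directions in the cell types. The log2 fold change of sgRNA-P1 over mock was 0.13 [-0.02 to 0.27] in T cells and -0.29 [-0.49 to -0.08] in B cells, and these counting intervals do not overlap. Each value rests on 1 library per group, the interval in T cells reaches 0, and the difference itself was not tested. After the GC and length trend the values were 0.11 in T cells and -0.23 in B cells.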

How the results depend on the processing

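Between mock T and mock B cells, 18 members in place of 10 passed the size rule with a minimum of 1 CPM or none (13 in place of 6 higher), and 5 did with a 2-fold rule (1 in place of 4 lower). With no minimum, 25.9% of all genes were higher and 26.8% lower, and with the 2-fold rule 12.3% and 12.2%. With sgRNA-P1, 18 in place of 11 passed with a minimum of 1 CPM or none (13 in place of 6 higher), 4 did with a 2-fold rule (3 higher, 1 lower; all genes 12.4% and 12.8%), and the median was 0.34 at 1 CPM and 0.33 with no minimum in place of 0.22. Over all genes, 30.2% were higher and 30.2% lower with no minimum. With a minimum of 1 CPM or none, 2 members passed 1.5-fold in sgRNA-P1 B cells (Cdc6 and Kif11) and 1 in sgRNA-P2 B cells (Cdc6), all higher. At 1 CPM, 2.32% of all genes were higher and 1.98% lower with sgRNA-P1, and 1.96% and 1.9% with sgRNA-P2. With no minimum the shares of all genes were 12.4% and 13.5% with sgRNA-P1, and 14.6% and 16.3% with sgRNA-P2. Members tested were 38 at 1 CPM and 40 with no minimum. These alternatives admit genes with few reads. In the model, 5 to 9 members were called lower in T cells with 1 library left out, in place of 9, and the 5 were without sgRNA-P1 T cells. Over all genes, 8704 of 18527 were called in either direction without sgRNA-P1 T cells and 11355 of 17123 without sgRNA-P1 B cells. A log2 fold change cannot move with another minimum or the 2-fold rule, and leaving out 1 column of each group keeps the same sample. With values at these settings counted in, 183 of 189 recomputed values of members past 1.5-fold between T and B cells stayed in their counting interval. Another 6 moved, all with the GC and length trend, and 0 turned round. The 6 were Cdt1 (-1.23 with sgRNA-P1, -1.19 in mock), Ccnd3 (1.23 with sgRNA-P1, 1.22 in mock), Dut (0.92) and Ccne2 (-0.19, under the 1.5-fold rule). Cdkn2c passed 1.5-fold only after this trend in both pairs, as did Mcm6 in mock and Ung with sgRNA-P1. With the same trend, smaller values turned round for 2 of 23 members in sgRNA-P1 T cells, 8 of 23 in sgRNA-P1 B cells (among them Ccne2, Top2a and Cenpe), 1 of 23 in sgRNA-P2 B cells and 7 of 24 between the guides, none with an interval that excluded 0. No paired analysis was possible because the 2 columns of each group differed by less than sampling noise and were counted as 1 sample. Depth limits members of few reads, such as Cdkn1a with 26 to 91 reads a library.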
